A study of Mus musculus with 8 samples.

Results

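The epithelial cells of p63 knockout (KO) embryonic mouse back skin were followed from embryonic day 13 (E13) to embryonic day 15 (E15). A barcode was taken as epithelial when it held at least 1000 genes, at most 10% mitochondrial UMIs (unique molecular identifiers, each counting 1 captured RNA molecule) and at least 1 UMI of at least 4 of 12 epithelial genes. The 12 were the adhesion genes Epcam and Cdh1, the junction genes Lsr, Cldn7 and Cldn6, the regulators Grhl2, Esrp2 and Esrp1, the membrane traffic genes Ap1m2 and Rab25, and the protease Prss8 with the inhibitor Spint1. This gave 331 cells of 4109 kept KO barcodes, and 7486 barcodes were kept over the whole series. They were 107 and 153 cells of the E13 KO libraries 1 and 2, and 17 and 54 cells of the E15 KO libraries 1 and 2.

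The series holds 8 single-cell libraries made with 10x 3' chemistry from dissected back skin digested with collagenase and trypsin. At each age there were 2 libraries labelled KO and 1 labelled HET for an allele that puts GFP into deltaNp63, and 1 wild-type (WT) library. WT and HET libraries served as control, as the series design names only a control and a KO arm, so the control carries 1 mutant allele in part of its libraries. The mutation is labelled as a knock-in allele of the whole animal, with no Cre or tissue-specific promoter named. The labels do not say whether libraries with the same label came from separate embryos, and p-values below measure only the spread between libraries. All E13 libraries held Xist at 1141 to 1537 UMIs in 1000000 and all E15 libraries held 0.325 to 0.611, while Y-linked genes reached 126 to 151 at E15, so age and sex cannot be told apart. Only autosomal genes were tested for that reason.

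p63, the product of Trp63, is the transcription factor through which the embryonic surface ectoderm commits to a stratified epidermis. The surface ectoderm starts as a simple epithelium with the keratin pair Krt8 and Krt18. In normal skin this pair gives way to Krt5 and Krt14 in the basal layer, and then to Krt1, Krt10 and the cornified envelope genes in the layers above. Mice without p63 are known to lack a stratified epidermis.

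Besides the chosen cells, 196, 260, 20 and 31 barcodes of the 4 KO libraries held 2 or 3 of the 12 genes. Chosen cells were 9.86% and 21.5% of kept barcodes at E13 and 1.73% and 4.06% at E15. Median depth of the chosen cells was 39922 and 31820 UMIs at E13 and 26042 and 22103 at E15, and the summed profiles held 5032640, 6029824, 690197 and 1707791 UMIs. The threshold cut least cleanly in E13 KO 2, where 93 barcodes had 3 of the genes and 28 had 4. In that library the cells with 3 genes held 52.1 CPM of Epcam and 2352 of 3 fibroblast collagens (Col1a1, Col1a2 and Col3a1), and those with 4 held 51.3 and 2860. No pair of libraries shared more than 6 barcodes.

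**Figure D1:**
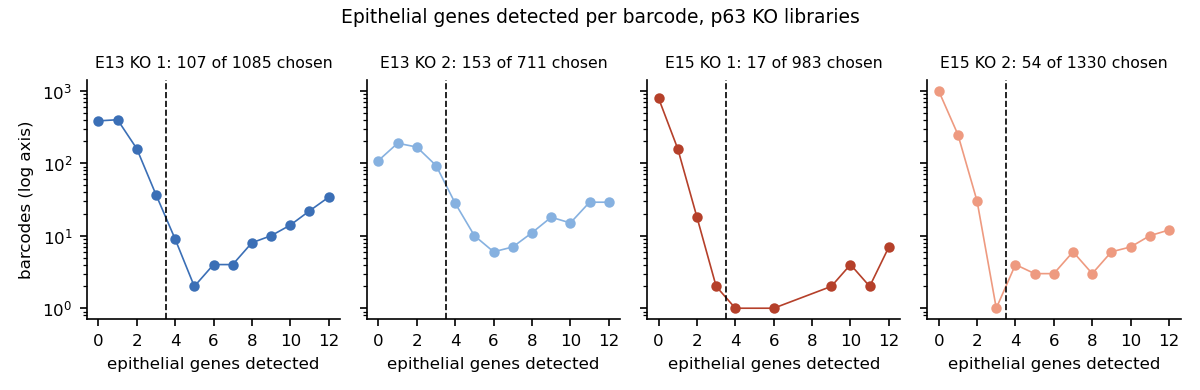
Barcodes (log axis) by the number of the 12 epithelial genes detected, in the 4 KO libraries. Points are counts above 0, lines join them, and the dashed line marks the threshold, with chosen cells to its right (107, 153, 17 and 54). E15 libraries have few barcodes near the line, and E13 KO 2 has the most.

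Levels are given as CPM, the UMIs of a gene in 1000000 UMIs of the chosen cells in a library, always in the order E13 KO 1, E13 KO 2, E15 KO 1 and E15 KO 2. Trp63 stood at 3.78, 3.32, 0 and 1.17 CPM, which is 39 UMIs over both E13 and 2 over both E15 libraries. The control cells chosen by the same rule held 143 and 85.4 CPM at E13 and 188 and 116 at E15. All KO libraries were below all control libraries. The change of Trp63 with age in KO did not pass the test (log2 fold change -1.92 ± 1.18 SE, adjusted p = 0.281 by edgeR).

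The 12 genes chose the cells and so are described without a test. Epcam, the pan-epithelial adhesion molecule, stood at 671, 599, 724 and 605 CPM. Cdh1 (E-cadherin) stood at 91.6, 90.9, 264 and 213 CPM, and the splicing regulator Esrp2 at 42.9, 41.1, 125 and 122. The claudins Cldn6 (279, 251, 84.0 and 70.3 CPM) and Cldn7 (323, 309, 120 and 48.6 CPM) had their higher values at E13. That the chosen cells carried epithelial genes at both ages was set by the rule and is not a result. Among the genes named here, Cdh1 and Esrp2 had their higher values at E15 and the claudins at E13. This balance was read from the genes of the rule itself, so it describes the chosen cells only.

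Across 11456 autosomal genes tested, 2396 changed between E13 KO and E15 KO at an adjusted p under 0.05, which is 20.9% of genes tested, with 1266 higher (11.1%) and 1130 lower (9.86%) at E15. Changes were tested on counts summed per library with edgeR's quasi-likelihood test and Benjamini-Hochberg adjustment over all these genes, and each log2 fold change is E15 minus E13 with an SE derived from that test. The split depended on scaling: with library totals alone the median gene moved from -0.03 to -0.14 and the share of calls that were higher went from 52.8% to 41.4%. The number of calls was 752 without E15 KO 2, 1501 without E15 KO 1, 1193 without E13 KO 1 and 1138 without E13 KO 2. The 2 KO libraries of each age did not overlap for 65.3% of genes tested, more often with E15 below (41.1%) than above (24.2%).

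A run of 3 neighbouring genes on chromosome 7, which encode secreted proteins of the differentiating epidermis, rose together. Krtdap (keratinocyte differentiation-associated protein) stood at 3.78, 5.97, 7947 and 9436 CPM. Dmkn (dermokine) stood at 0.397, 0.663, 1646 and 3203 CPM, and Sbsn (suprabasin) at 11.3, 9.29, 194 and 350 CPM. Both E15 libraries were far above both E13 libraries for all 3 genes. In E15 KO 1 all 17 cells had UMIs of Krtdap and Dmkn, but 3 cells held 65.0% and 58.2% of them. The log2 fold changes were 10.90 ± 0.57 for Krtdap (adjusted p = 2.11e-06, edgeR), 12.15 ± 0.59 for Dmkn (adjusted p = 1.62e-06) and 4.87 ± 0.33 for Sbsn (adjusted p = 1.47e-05). In control cells the E13 libraries held 44.5 and 36.1 CPM of Krtdap and the E15 libraries 6505 and 2363. Sbsn was added to this group for its position, after its values had been seen.

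In GENCODE M21 on GRCm38 (mm10) all 3 genes lie on the plus strand, Sbsn at chr7:30751471-30756134, Dmkn at chr7:30763756-30781063 and Krtdap at chr7:30787896-30791097, with no other gene of the deposited table between them. The next gene before Sbsn, Gm26935, stood at 2.58, 1.82, 4.35 and 4.68 CPM and did not pass the test (1.17 ± 0.65, adjusted p = 0.231, edgeR). The next after Krtdap, Ffar2, had 0 UMIs in all 4 libraries. Tmem147, further before Sbsn, stood at 149, 127, 168 and 187 CPM and did not pass either (adjusted p = 0.0718). The 250 bases before each gene's first RefSeq start (GRCm38.p6) are shown because the 3 genes rose together, with matches to 3 of 5 searched motifs in capitals.

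Sbsn, chr7:30751221-30751470, plus strand: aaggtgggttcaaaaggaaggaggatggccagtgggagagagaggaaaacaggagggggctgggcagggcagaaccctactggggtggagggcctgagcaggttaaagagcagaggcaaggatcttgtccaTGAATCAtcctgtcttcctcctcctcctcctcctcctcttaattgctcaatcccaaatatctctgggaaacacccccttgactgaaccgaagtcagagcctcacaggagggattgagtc

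Dmkn, chr7:30763506-30763755, plus strand: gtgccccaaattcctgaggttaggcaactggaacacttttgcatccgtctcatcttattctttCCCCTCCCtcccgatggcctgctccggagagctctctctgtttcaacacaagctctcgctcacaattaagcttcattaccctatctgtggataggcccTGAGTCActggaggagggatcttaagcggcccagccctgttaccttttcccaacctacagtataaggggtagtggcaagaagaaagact

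Krtdap, chr7:30787655-30787904, plus strand: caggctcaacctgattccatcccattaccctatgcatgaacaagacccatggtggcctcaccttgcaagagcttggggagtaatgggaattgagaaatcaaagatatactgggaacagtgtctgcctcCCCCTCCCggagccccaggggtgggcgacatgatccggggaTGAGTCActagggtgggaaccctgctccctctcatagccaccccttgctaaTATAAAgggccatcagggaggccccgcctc

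Each window held 1 match to the AP-1 letters TGANTCA, starting 119 bases before the start of Sbsn, 89 before Dmkn and 81 before Krtdap, and 6.75% of 32851 RefSeq windows of this length held one. The letters of the KLF motif GGGNGGGG, read on the other strand, were in the Dmkn and Krtdap windows and in 30.8% of all windows. TATAAA was in the Krtdap window, 30 bases before the start, and in 12.4% of all windows. All motifs were searched on both strands, and the motifs did not overlap each other in these windows. The TFAP2 letters GCCNNNGGC and the GRHL letters AACCNGTT were in none of the 3 windows (13.7% and 1.79% of all windows). A match describes the letters only, and binding was not measured.

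Keratins of the simple epithelium did not move as a block. Krt8 stood at 827, 659, 675 and 461 CPM and did not pass the test (-0.27 ± 0.49, adjusted p = 0.739, edgeR), with the groups overlapping. Krt18, its partner, stood at 1158, 822, 398 and 279 CPM and fell by 1.44 ± 0.32 on the log2 scale (adjusted p = 0.0109), a call lost without E13 KO 1 (adjusted p = 0.0963) or E15 KO 2 (adjusted p = 0.121). Krt19 stood at 61.0, 44.4, 574 and 647 CPM, both E15 libraries far above both E13, and rose by 3.66 ± 0.66 (adjusted p = 0.00356), or adjusted p = 0.0506 without E13 KO 2. Krt7 stood at 133, 110, 63.7 and 93.7 CPM (-0.45 ± 0.42, adjusted p = 0.49).

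Among basal-layer keratins, Krt15 rose most, from 68.2 and 52.7 to 1866 and 2703 CPM (5.36 ± 0.43, adjusted p = 3.36e-05, edgeR), while the defining basal pair stayed low. In E15 KO 1, 1 cell held 34.2% of the Krt15 UMIs. Krt5 stood at 7.15, 3.98, 47.8 and 134 CPM (4.25 ± 0.61, adjusted p = 0.000936; 3.25 without E15 KO 2). Krt14 stood at 2.19, 3.81, 11.6 and 86.1 CPM (4.29 ± 0.81, adjusted p = 0.00469). Its rise was 2.05 with adjusted p = 0.403 without E15 KO 2 and 4.94 without E15 KO 1, and 36.7% of its UMIs in E15 KO 2 came from 1 cell. The E15 control libraries held 1319.9 and 878 CPM of Krt5, 2420.04 and 897 of Krt14, and 1172 and 825 of Krt15. At E15 Krt15 was thus above the control libraries in KO cells and Krt5 and Krt14 were below them, a comparison of levels that was not tested here.

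The suprabasal keratin pair was low and uneven between the E15 libraries. Krt1 stood at 4.37, 3.15, 5.80 and 59.1 CPM (3.46 ± 1.02, adjusted p = 0.0362, edgeR), with 48.5% of its E15 KO 2 UMIs in 1 cell. Its call was lost without E13 KO 1 (adjusted p = 0.123), E13 KO 2 (adjusted p = 0.164) or E15 KO 2 (0.76, adjusted p = 0.882), and the value was 4.12 without E15 KO 1. Krt10 stood at 37.8, 42.3, 44.9 and 217 CPM and did not pass (1.91 ± 0.66, adjusted p = 0.0659 by edgeR). It passed in 9 of 24 alternatives, among them those without E15 KO 1, E15 WT or E15 HET. Its change was 2.58 without E15 KO 1 and 0.30 without E15 KO 2. Krt17, of periderm and appendages, stood at 12.1, 9.78, 17.4 and 171 CPM (3.36 ± 0.80, adjusted p = 0.0149). Without E15 KO 2 it was 0.80 (adjusted p = 0.726), without E15 KO 1 4.11, and its call was also lost without E13 KO 1 (adjusted p = 0.0839) or E13 KO 2 (adjusted p = 0.106). In all 3 genes E15 KO 2 was the high library.

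**Figure D2:**
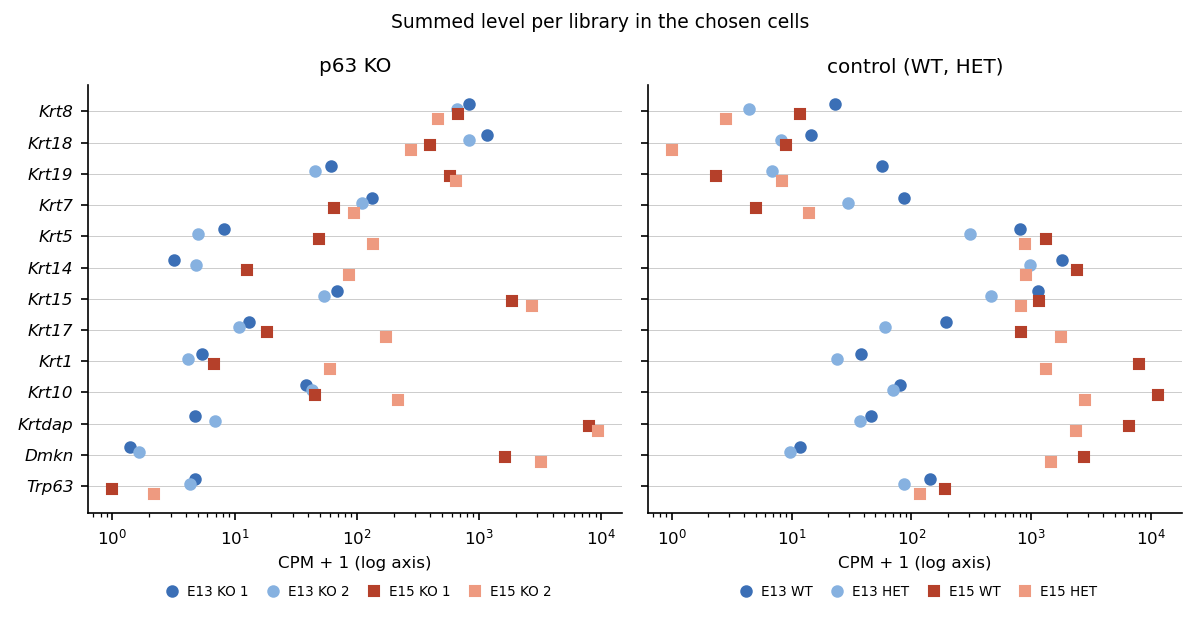
Summed level of each keratin, Krtdap, Dmkn and Trp63 as CPM + 1 (log axis), 1 point per library, for the KO arm on the left and the control arm on the right. In KO cells Krt8 overlaps between ages, Krt15, Krtdap and Dmkn are higher in both E15 libraries, and Krt5 and Krt14 stay below the control libraries.

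To see whether single cells carried these genes together, each cell was thinned to 5000 UMIs (1 cell of E15 KO 1 and 2 of E15 KO 2 were shallower and left out). Krtdap was then detected in 0.935%, 1.31%, 93.8% and 100% of chosen cells, the last 2 with exact 95% binomial intervals of 69.8 to 99.8% and 93.2 to 100%. Dmkn was detected in 0 of 107 and 0 of 153 E13 cells, which allows up to 2.80% and 1.96% at this thinned depth, and in 100% and 96.2% of E15 cells. Krt15 was detected in 24.3%, 16.3%, 100% and 92.3%. Krt8 stayed at 85.0%, 75.8%, 93.8% and 82.7%, and cells with both Krt8 and Krt15 made up 21.5%, 15.7%, 93.8% and 78.8%. Both Krt8 and Krtdap were found in 0.935%, 1.31%, 87.5% and 82.7% of cells. Krt15 and Krtdap were found together in 0.935%, 0.654%, 93.8% and 92.3%. Most E15 KO cells thus held each of these pairs, and few E13 KO cells held a pair with Krtdap.

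Free RNA gives UMIs to cells that do not make a gene, and barcodes with at most 1 epithelial gene were used as its measure. There Krtdap was detected in 0.384%, 0.336%, 18.8% and 38.4% of cells, Dmkn in 0, 0, 6.97% and 20.1%, and Krt15 in 1.79%, 2.01%, 7.83% and 19.6%, and Krt8 in 12.7%, 23.8%, 3.11% and 2.95%, with median depths before thinning of 16589, 16600, 13668 and 13413 UMIs. The shares in chosen E15 cells were above these. Krt5 was detected in 2.80%, 1.31%, 18.8% and 28.8% of chosen cells and Krt14 in 1.87%, 2.61%, 6.25% and 17.3%, against 0 to 0.737% and 0 to 0.671% in those barcodes. Without thinning the shares were 12.1%, 13.1%, 100% and 100% for Krtdap, 1.87%, 0.654%, 100% and 100% for Dmkn, 64.5%, 51.6%, 100% and 96.3% for Krt15, 22.4%, 11.1%, 47.1% and 66.7% for Krt5 and 7.48%, 12.4%, 23.5% and 33.3% for Krt14. Intervals and limits cover counting error only.

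**Figure D3:**
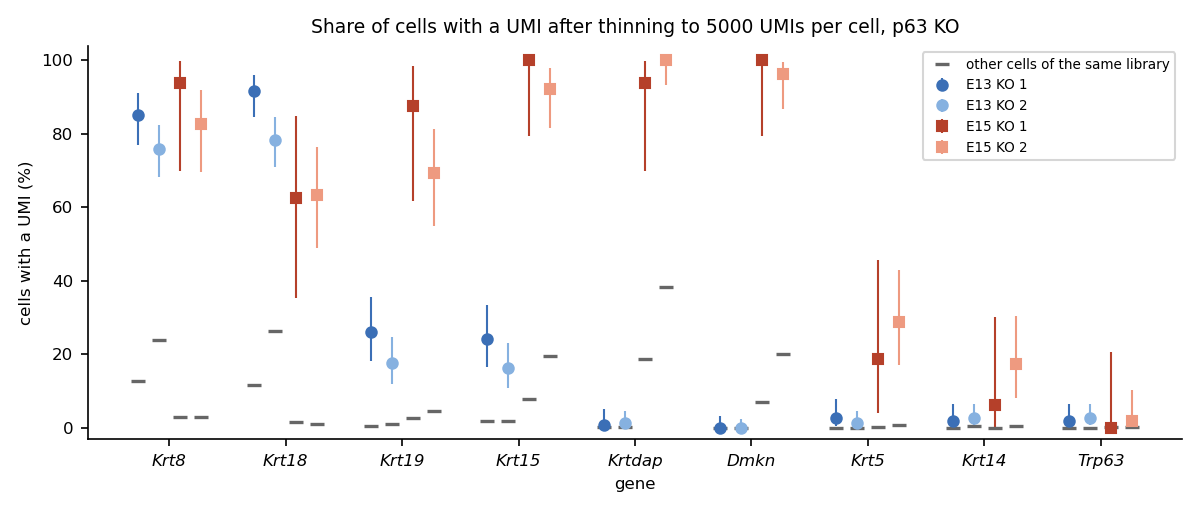
Share of cells with at least 1 UMI after thinning to 5000 UMIs per cell, in the 4 KO libraries. Points are chosen cells with exact 95% binomial intervals, and grey bars are barcodes of the same library with at most 1 epithelial gene; Krt15, Krtdap and Dmkn reach 92.3 to 100% at E15 and Krt8 is at 75.8 to 93.8% at both ages.

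Of 30 tested genes of keratinocyte differentiation, 23 rose and 0 fell (76.7% called), with a median log2 fold change of 3.79 against -0.03 over all genes tested. Without E15 KO 2, 11 rose and 0 fell. Lor (loricrin, a cornified envelope protein) rose from 0.994 and 0.995 to 52.2 and 56.8 CPM (5.86 ± 0.30, adjusted p = 2.08e-06, edgeR), far below the 872 and 1184 CPM of E15 control cells. Asprv1, the skin aspartic protease that processes filaggrin, rose from 3.78 and 2.82 to 220 and 1156 CPM (7.84 ± 0.75), and was 6.19 without E15 KO 2 and 8.59 without E15 KO 1. The calcium-binding S100a11 rose from 944 and 866 to 3063 and 2855 CPM (1.83 ± 0.18, adjusted p = 9.58e-05), and Zfp750, a differentiation factor known as a p63 target, from 4.77 and 3.81 to 52.2 and 63.2 CPM (3.90 ± 0.40, adjusted p = 0.000134). The late genes Flg and Ivl had 0 UMIs in all 4 KO libraries and were not tested. S100a11, Zfp750, Flg and Ivl were singled out after their values had been seen.

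Cell junction genes rose with them. Of 22 tested desmosome and tight junction genes 13 rose and 0 fell (59.1% called, median 1.05). Jup (plakoglobin) stood at 123, 116, 410 and 401 CPM (1.89 ± 0.15, adjusted p = 3.45e-05, edgeR), Pkp3 (plakophilin) at 66.4, 57.0, 194 and 206 (1.82 ± 0.21) and Ppl (periplakin) at 22.7, 18.9, 92.7 and 136 (2.62 ± 0.34). The rise of Jup was 1.86 in control cells, close to that in KO. Both E15 libraries were above both E13 libraries for all 3 genes.

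Of 21 basal keratinocyte genes 10 rose and 2 fell (57.1% called, median 2.11), with 6 rising and 0 falling without E15 KO 2 or E13 KO 2, 6 and 1 without E13 KO 1, and 8 and 0 without E15 KO 1. Without E13 WT or E13 HET 8 rose and 1 fell, and the median was 0.95 without E15 KO 2. Cldn1, a barrier claudin, rose from 1.59 and 1.99 to 65.2 and 56.8 CPM (5.15 ± 0.34, adjusted p = 1.28e-05, edgeR) and Trim29 from 4.37 and 4.48 to 68.1 and 83.7 CPM (4.24 ± 0.27, adjusted p = 9.69e-06). Perp, a desmosomal protein known as a p63 target and named here after its values were seen, rose from 32.6 and 31 to 487 and 1036 CPM (4.71 ± 0.40, adjusted p = 4.41e-05). The 2 genes that fell were the integrin Itga3 (21.1, 20.4, 5.80 and 8.78 CPM) and Igfbp3 (19.7, 51.9, 4.35 and 8.78 CPM). Col17a1 of the hemidesmosome was called on 4 UMIs, all in E15 KO 2. Other members were also near 0 in KO, with 0 UMIs at E13 and 7 at E15 for Dsg3, and 2 and 10 for Ly6d. With only the 4 KO libraries in the fit, 15 of the list were tested, 8 rose and 2 fell, with a median of 1.12. The median of 2.11 thus depends on members that entered the test with the control libraries.

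Of 16 simple epithelium genes 9 rose and 3 fell (75.0% called, median 0.85). Without E13 KO 2 5 rose and 2 fell, without E15 KO 2 6 and 1, and without E13 KO 1 7 and 1. The transcription factor Klf5 rose from 68.9 and 53.6 to 448 and 618 CPM (3.25 ± 0.24, adjusted p = 2.38e-05, edgeR) and the carboxypeptidase Cpa4 from 14.3 and 14.6 to 82.6 and 80.2 CPM (2.61 ± 0.22). Besides Krt18, Bfsp2 and Upk3bl fell, named after their values were seen, Bfsp2 from 354 and 349 to 33.3 and 3.51 CPM (adjusted p = 0.000192) and Upk3bl from 331 and 262 to 161 and 52.7 CPM (adjusted p = 0.0474).

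Of 9 tested periderm genes 6 rose and 1 fell (77.8% called, median 1.52). Without E15 KO 2 2 rose and 0 fell with a median of 0.97, without E13 KO 2 3 rose and 0 fell, and without E15 KO 1 5 rose and 0 fell. Grhl3, of barrier formation, rose from 14.7 and 13.4 to 44.9 and 47.4 CPM (1.84 ± 0.30, adjusted p = 0.00181 by edgeR; 0.0501 without E15 KO 2). The mucosal keratin Krt4 rose from 1.99 and 1.66 to 59.4 and 267 CPM (6.69 ± 0.91; 5.14 without E15 KO 2 and 7.32 without E15 KO 1), and had 0 UMIs in both E15 control libraries. Gabrp, the 1 that fell, went from 123 and 175 to 20.3 and 25.2 CPM (adjusted p = 0.0104).

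Among 29 epithelial transcription factors 14 rose and 3 fell (58.6% called, median 0.53), or 6 and 1 without E15 KO 2 and 15 and 5 without E15 WT or without E15 HET. Dlx5, a distal-less homeobox factor, rose from 5.36 and 3.98 to 30.4 and 34.0 CPM (2.92 ± 0.31, adjusted p = 0.000143, edgeR), and Klf6 from 61.8 and 72.3 to 146 and 154 CPM (1.29 ± 0.15, adjusted p = 0.000263). Sox11, of embryonic progenitors, fell from 105 and 102 to 7.24 and 8.20 CPM (-3.59 ± 0.32, adjusted p = 5.87e-05). The other 2 that fell were Sox4 (322, 257, 133 and 132 CPM) and Irx4 (24, 10.3, 2.90 and 0 CPM).

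**Figure D4:**
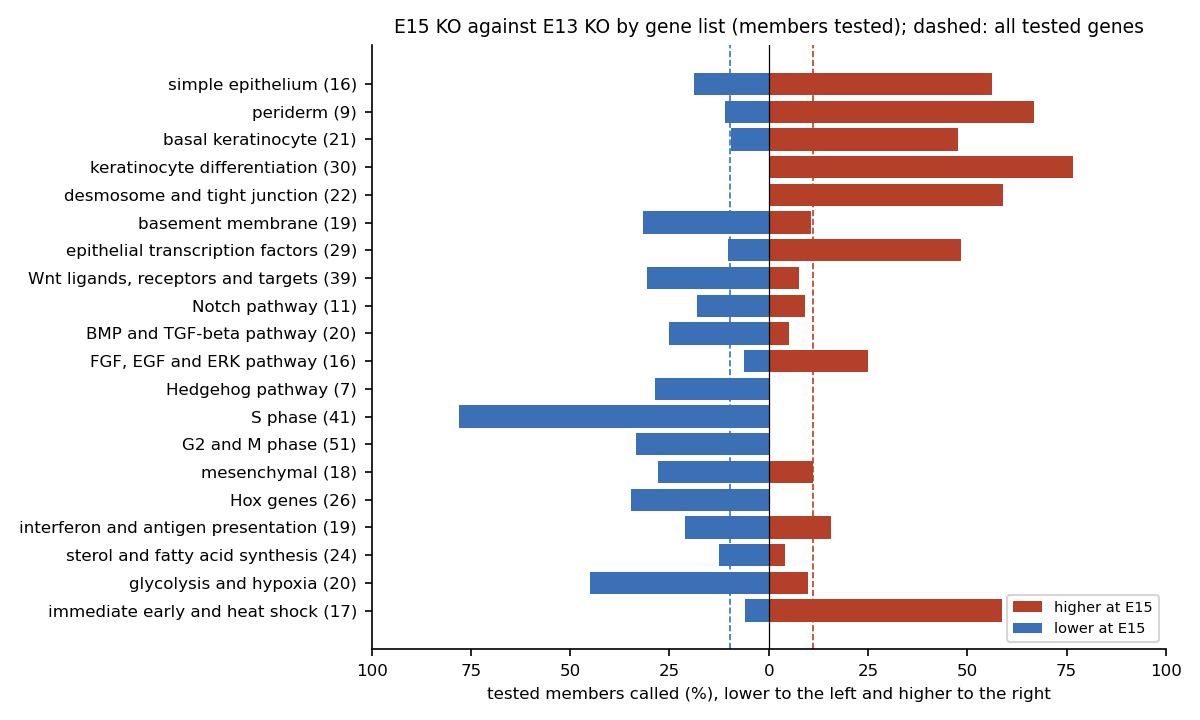
Share of the tested members of each gene list called higher (red, right) or lower (blue, left) at E15 in KO cells, with the number tested in brackets and dashed lines at the shares of all genes tested (11.1% higher and 9.86% lower). Keratinocyte differentiation is at 76.7% higher and S phase at 78.0% lower.

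Cell-cycle genes moved the other way. Of 41 S-phase genes 0 rose and 32 fell (78.0% called, median -0.98), and of 51 genes of G2 and M phase 0 rose and 17 fell (33.3% called, median -0.76). Without E13 KO 1, E13 KO 2, E15 KO 1 and E15 KO 2 in turn, 15, 19, 16 and 13 S-phase genes fell, and 9, 7, 8 and 7 of G2 and M phase. Without E15 WT or E15 HET 26 or 27 of the latter fell. Chaf1b, a chromatin assembly subunit, stood at 105, 81.9, 13.0 and 10.5 CPM (-2.92 ± 0.26, adjusted p = 6.81e-05, edgeR), Rrm2, of nucleotide synthesis, at 110, 110, 20.3 and 36.3 (-1.72 ± 0.23) and Cdk1, the mitotic kinase, at 202, 200, 75.3 and 97.8 (-1.07 ± 0.17). Both E15 libraries were below both E13 libraries for these genes. With each cell thinned to 5000 UMIs the calls of Rrm2 (adjusted p = 0.126, edgeR) and Cdk1 (adjusted p = 0.483) were lost. Chaf1b kept its call in all 24 alternatives. The fewest falling in any alternative were 8 S-phase and 3 G2 and M genes. In control cells 19 of 41 S-phase and 3 of 51 G2 and M genes fell, where 5.12% of all genes tested were called lower. The G2 and M count in control lies near that share.

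Signalling genes of the Wnt pathway mostly fell where they changed. Of 39 tested ligands, receptors and targets 3 rose and 12 fell (38.5% called, median -0.67). Without E15 KO 2 0 rose and 5 fell with a median of -0.42, without E13 KO 2 1 and 7, without E13 KO 1 or E15 KO 1 1 and 10, and without E15 WT or E15 HET 6 and 12. The ligand Wnt7a went from 55.8 and 46.9 CPM to 0 UMIs in both E15 libraries, at least 40.8-fold lower against a floor of 3 counts over both. The ligand Wnt3 stood at 95.8, 80.9, 24.6 and 32.8 CPM (-1.44 ± 0.20, adjusted p = 0.000742, edgeR). Lef1, which is both an effector and a target of the pathway, stood at 108, 111, 29.0 and 21.7 CPM (-2.06 ± 0.20, adjusted p = 0.000101). The 3 that rose were the ligand Wnt16 (0, 0, 17.4 and 10.5 CPM), the co-receptor Lrp6 and its antagonist receptor Kremen1. Control cells gave a similar count, with 3 of the 39 higher and 9 lower and a median of -0.64. The change differed between the arms for 2 genes, both with KO above control.

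Other pathways gave few calls, several of which rested on 1 library. Of 11 Notch genes 1 rose and 2 fell (27.3% called against 20.9% of all genes), with 0 called without E15 KO 2, 0 and 1 without E13 KO 1, 1 and 0 without E13 KO 2 and 1 and 1 without E15 KO 1. The receptor Notch2 stood at 7.95, 13.3, 17.4 and 32.2 CPM, the inhibitory factor Hes6 at 38.9, 40.0, 15.9 and 19.9 and the Notch-modifying Lfng at 8.94, 9.62, 2.90 and 0. The call of Hes6 was lost without any 1 of the 4 KO libraries, that of Notch2 without E13 KO 1 or E15 KO 2, and that of Lfng without E13 KO 2 or E15 KO 2. Of 20 BMP and TGF-beta genes 1 rose and 5 fell (5% higher and 25% lower, against 11.1% and 9.86% of all genes), and 0 were called without E15 KO 2, 1 and 1 without E13 KO 1, 1 and 2 without E13 KO 2 and 1 and 3 without E15 KO 1. The inhibitor Smad7 stood at 21.7, 25.7, 4.35 and 5.27 CPM (-2.12 ± 0.35, adjusted p = 0.00202, edgeR; 0.0507 without E15 KO 2) and the receptor Tgfbr2 at 19.7, 18.6, 37.7 and 42.7 (1.21 ± 0.23, adjusted p = 0.00423; 0.0866 without E15 KO 2). Of 7 Hedgehog genes 0 rose and 2 fell (28.6% called against 20.9% of all genes), Smo (56.0, 48.3, 11.6 and 19.3 CPM) and Gli3 (18.7, 17.1, 4.35 and 5.27 CPM), with 0 called without E15 KO 2, 1 lower without E13 KO 1 or E15 KO 1, and 2 higher and 2 lower without E15 WT or E15 HET. Smo and Gli3 are the signal transducer and a transcription factor of that pathway.

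In the FGF, EGF and ERK list 4 of 16 rose and 1 fell (25% higher and 6.25% lower, against 11.1% and 9.86% of all genes), or 3 and 0 without E15 KO 2. The 4 were the EGF-family ligand Btc (5.56, 3.48, 34.8 and 47.4 CPM; 3.34 ± 0.35, adjusted p = 0.000223, edgeR), the receptors Erbb2 (51.1, 45.8, 128 and 133 CPM; 1.55 ± 0.17) and Erbb3 (39.5, 41.6, 88.4 and 74.4 CPM; 1.10 ± 0.17), and the receptor Egfr (6.95, 8.29, 15.9 and 15.8 CPM; adjusted p = 0.0365). The gene that fell was Fgfr2, the epithelial FGF receptor, at 25.8, 29.2, 7.24 and 0.586 CPM (adjusted p = 0.00382). Btc had 0 UMIs in both E15 control libraries.

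Basement membrane genes gave 2 higher and 6 lower of 19 tested (42.1% called, median -0.28), or 1 and 1 without E15 KO 2, 2 and 2 without E13 KO 2 and 1 and 3 without E13 KO 1. Their median was 0.0042 without E13 KO 2, -0.53 without E13 KO 1 and -0.46 without E15 KO 2, so it gives no direction for the list. The type IV collagen chains fell, Col4a1 from 43.7 and 85.1 to 10.1 and 15.8 CPM (-2.09 ± 0.39, adjusted p = 0.00418, edgeR; 0.0621 without E15 KO 2) and Col4a2 from 55.2 and 79.8 to 5.80 and 19.9 CPM (-2.02 ± 0.38, adjusted p = 0.00429; -3.40 without E15 KO 2). The Col4a1 call was also lost with at least 6 epithelial genes required and with the rule applied to thinned cells. It was lost too with each cell thinned to 5000 UMIs (adjusted p = 0.204, edgeR). Col4a2 lost its call only at no more than 5% mitochondrial UMIs, which left out E15 KO 1. In E13 KO 1 and E13 KO 2, 30% and 28.7% of Col4a1 UMIs came from 1 cell. Endothelial cells also make these chains, and the summed level of 8 endothelial markers in the chosen cells was 97.8, 185, 17.4 and 42.7 CPM, with Emcn at 0 in both E15 libraries. Its part in the fall was not tested.

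Hox genes, which mark position along the body axis, gave 0 higher and 9 lower of 26 tested (34.6% called, median -1.22), or 0 and 3 with a median of -0.61 without E15 KO 2. Hoxc8 stood at 168, 102, 8.69 and 18.2 CPM (-3.05 ± 0.41, adjusted p = 0.000675, edgeR; -3.82 without E15 KO 2), Hoxc5 at 40.9, 38.1, 1.45 and 2.93 (-3.85 ± 0.39; -4.61 without it) and Hoxc4 at 28.6, 37.5, 1.45 and 4.10 (-3.19 ± 0.40; -4.35 without it). Hox genes also fell in control cells, where 0 of the 26 were higher and 7 lower, with a median of -0.88. The place along the back from which each skin was taken is not given in the labels, and its part was not tested.

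In metabolism and stress lists, glycolysis and hypoxia genes gave 2 higher and 9 lower of 20 (55.0% called, median -0.60), or 2 and 3 without E15 KO 2. Pkm (pyruvate kinase) stood at 1064, 1013, 407 and 421 CPM (-1.20 ± 0.12, adjusted p = 0.000124, edgeR) and the glucose transporter Slc2a3 at 194, 144, 13.0 and 14.1 (-3.50 ± 0.27). Ndrg1, a stress-responsive differentiation gene, went against them at 10.1, 12.8, 275 and 335 CPM (4.86 ± 0.19, adjusted p = 4.02e-07). Immediate early and heat shock genes gave 10 higher and 1 lower of 17 (64.7% called, median 1.12), or 5 and 1 without E15 KO 2 or E13 KO 1. They included Ier3 (21.1, 22.1, 110 and 99.5 CPM) and Hspa1a (3.38, 3.98, 39.1 and 52.7 CPM), while Hsp90aa1 fell (1181, 968, 364 and 370 CPM). Genes of this kind respond to tissue digestion, and in control cells 14 of them rose and 1 fell. The median mitochondrial share of UMIs in the chosen KO cells was 3.69% and 3.46% at E13 and 5.42% and 4.22% at E15. The part of digestion or cell quality was not tested.

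Of 24 sterol and fatty acid synthesis genes 1 rose and 3 fell, a share of 16.7% that lies below the 20.9% of all genes. Sc5d stood at 13.5, 16.6, 23.2 and 32.8 CPM, Scd2 at 262, 284, 132 and 104, Acat2 at 81.7, 95.2, 39.1 and 53.3, and Mvd at 31, 31.3, 8.69 and 17.6. Of 19 interferon and antigen presentation genes 3 rose and 4 fell (15.8% higher and 21.1% lower, against 11.1% and 9.86% of all genes). The interferon-induced Isg15 stood at 23.8, 16.8, 0 and 0.586 CPM, or 221 against 1 UMIs (47.9-fold lower, counting interval 8.51 to 1901). In E13 KO 1 and E13 KO 2, 1 cell held 25.8% and 38.6% of its UMIs, and 3 cells held 64.2% and 64.4%. The interval does not cover this spread between cells. The peptide transporter Tap1 stood at 32.4, 42.0, 98.5 and 103 CPM (1.56 ± 0.28, adjusted p = 0.00326, edgeR). Its change was 1.53 without E15 KO 2, where its call was lost. The call of Acat2 was lost without any 1 of the 4 KO libraries, that of Scd2 without E15 KO 2 and that of Sc5d without E13 KO 1 or E15 KO 2. Without E15 KO 2 the sterol and interferon lists gave 0 and 0, and 1 and 1. Without E13 KO 1 they gave 0 and 1, and 2 and 3. Without E13 KO 2 they gave 1 and 1, and 2 and 1, and without E15 KO 1 1 and 1, and 2 and 2.

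Among called genes with at least 50 CPM in 1 age and no overlap, the 8 largest rises were Aox4, Dmkn, Cma1, Krtdap, Klk10, Tpsb2, Muc15 and Asprv1. Aox4, an aldehyde oxidase, had 0 UMIs at E13 and stood at 110 and 245 CPM at E15, at least 759.6-fold higher against a floor of 3 counts over both E13 libraries. The kallikrein protease Klk10 stood at 0.795, 0.995, 277 and 304 CPM (8.40 ± 0.30, adjusted p = 4.02e-07, edgeR) and the membrane mucin Muc15 at 0.199, 0.829, 89.8 and 162 (7.94 ± 0.45; 9.20 without E13 KO 2). Cma1 (0.199, 0, 416 and 124 CPM) and Tpsb2 (0, 0.829, 196 and 60.9 CPM) encode mast cell proteases. Cma1 was 2302-fold higher on 1 UMI at E13 (counting interval 411.3 to 91100). In E15 KO 1 1 cell held 78.8% of the Cma1 and 79.3% of the Tpsb2 UMIs. Without E15 KO 1 the fitted changes were 10.10 and 7.12, without E15 KO 2 11.83 and 8.79, without E13 KO 1 12.78 and 7.25 and without E13 KO 2 10.19 and 11.59. The barcodes with at most 1 epithelial gene held 1108 and 1416 CPM of Cma1 at E15, and the summed level of 7 mast and neutrophil markers in chosen cells was 5.17, 4.98, 354 and 46.3 CPM with Mcpt4 at 0 in all 4 libraries.

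The 8 largest falls by the same rule were Npy, Wnt7a, Gjb2, Amtn, Foxb1, Igfbp2, Nnat and Gjb6. The neuropeptide gene Npy went from 101 and 45.4 CPM to 0 UMIs in both E15 libraries, at least 56.5-fold lower against the same floor. Gjb2 (connexin 26) stood at 448, 483, 0 and 1.17 CPM, or 5169 against 2 UMIs (560.2-fold lower, counting interval 155 to 4627), and its partner Gjb6 (connexin 30) at 174, 172, 1.45 and 2.93 (-5.98 ± 0.35, adjusted p = 5.33e-06, edgeR). Igfbp2, a binding protein of insulin-like growth factors, stood at 2067, 1727, 5.80 and 14.6 CPM (-7.22 ± 0.49, adjusted p = 1.4e-05), and the imprinted gene Nnat at 231, 218, 2.90 and 2.34 CPM (-6.35 ± 0.67). Both were also lower at E15 in the barcodes with at most 1 epithelial gene, where Nnat stood at 481, 496, 36.2 and 28.3 CPM, above its level in the chosen cells, and Igfbp2 at 366, 377, 83.3 and 113. Gjb2 (10.2, 24.9, 0.271 and 0.281 CPM) and Gjb6 (5.25, 12.6, 0.0676 and 0 CPM) were low in those barcodes. Amtn, an enamel-organ gene, went from 1110 to 1 UMIs (240.6-fold lower, interval 43.1 to 9512; adjusted p = 0.0715 without E15 KO 2) and the forkhead factor Foxb1 from 809 to 1 (175-fold lower, interval 31.4 to 6935). Igfbp2 was -8.22 and Gjb6 -6.74 without E15 KO 2. Npy was uneven between E13 cells, with 24.2% and 38.7% of its UMIs in 1 cell, and 6 neuron markers summed to 37.6, 152, 7.24 and 0.586 CPM in the chosen cells; their part in its fall was not tested.

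The same test in control cells called 1450 genes (12.7%), 863 higher (7.53%) and 587 lower (5.12%). With library totals alone 777 were higher and 844 lower, and without E13 WT, E13 HET or E15 WT the calls were 672, 687 and 712. Of the KO calls 648 were called in the same direction in control, which is 27.0% of the KO and 44.7% of the control calls, and 39 in the opposite direction. The change with age itself differed between KO and control for 293 genes (2.56%), 118 with the KO change above (1.03%) and 175 below (1.53%). That number was 16 to 331 when 1 library was left out, with 16 without E13 KO 2, 29 without E15 KO 2, 68 without E13 WT, 83 without E13 KO 1, 86 without E15 KO 1 and 149 without E13 HET. The E15 control side rests on 36 WT and 21 HET cells with a median of 5.5 and 6 of the 12 epithelial genes, against 11 and 10 in E15 KO. In those 2 control libraries 31 and 17 cells held at least as many of 12 fibroblast markers as epithelial genes, against 4 and 28 cells in E15 KO.

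Krt15 rose more in KO than in control, where it stood at 1139 and 459 CPM at E13 and 1172 and 825 at E15 (difference of the changes 4.93 ± 0.54, adjusted p = 0.00457, edgeR). It passed in 22 of 22 alternatives. Sprr2a3, of a cornified envelope family, stood at 16.5, 23.7, 523 and 377 CPM in KO and at 9.42, 10.1, 1.33 and 0 in control (difference 8.08 ± 0.68, adjusted p = 0.0024), and reads of its near-identical neighbours make its level uncertain. Rtn1, an endoplasmic reticulum protein, stood at 21.3, 8.79, 29.0 and 39.2 CPM in KO and at 62.9, 70.3, 4.0 and 0 in control (difference 6.11 ± 0.87, adjusted p = 0.0113). Krtdap and Dmkn rose in both arms and more in KO, by 3.99 ± 0.60 and 4.27 ± 0.76, from E13 levels that were below those of control; both differences lost their call without E13 KO 1, E13 KO 2 or E15 KO 2, and Dmkn also without E13 WT.

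Krt10 went the other way, rising in control from 79.6 and 68.8 to 11390.3 and 2823 CPM (difference -4.79 ± 0.93, adjusted p = 0.0269, edgeR), and 7 alternatives lost this call. Gjb2 fell in both arms and further in KO, with 675 and 489 CPM at E13 and 57.3 and 62.5 at E15 in control (difference -5.77 ± 0.56, adjusted p = 0.00457). Ndufa4l2, a hypoxia-responsive mitochondrial gene, stood at 2.38, 5.80, 7.24 and 45.1 CPM in KO and at 0.304, 0.465, 858 and 257 in control (difference -7.51 ± 1.40, adjusted p = 0.0249). Of 20 glycolysis and hypoxia genes the change was below control for 7 and above for 1, of 19 basement membrane genes below for 5 and above for 0, and of 30 differentiation genes above for 5 and below for 1. Over all genes tested the shares were 1.53% below and 1.03% above. These list counts were not repeated with 1 library left out. Of the 30 differentiation genes 27 rose and 0 fell in control, with a median log2 fold change of 6.37 against 3.79 in KO. The rise over this list was thus larger in control, though Krtdap and Dmkn rose more in KO. In control cells Col4a1 stood at 56.5 and 48.5 CPM at E13 and 140 and 118 at E15, and the endothelial marker sum there was 44.2 and 34.6 CPM at E13 and 290 and 55.1 at E15.

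**Figure D5:**
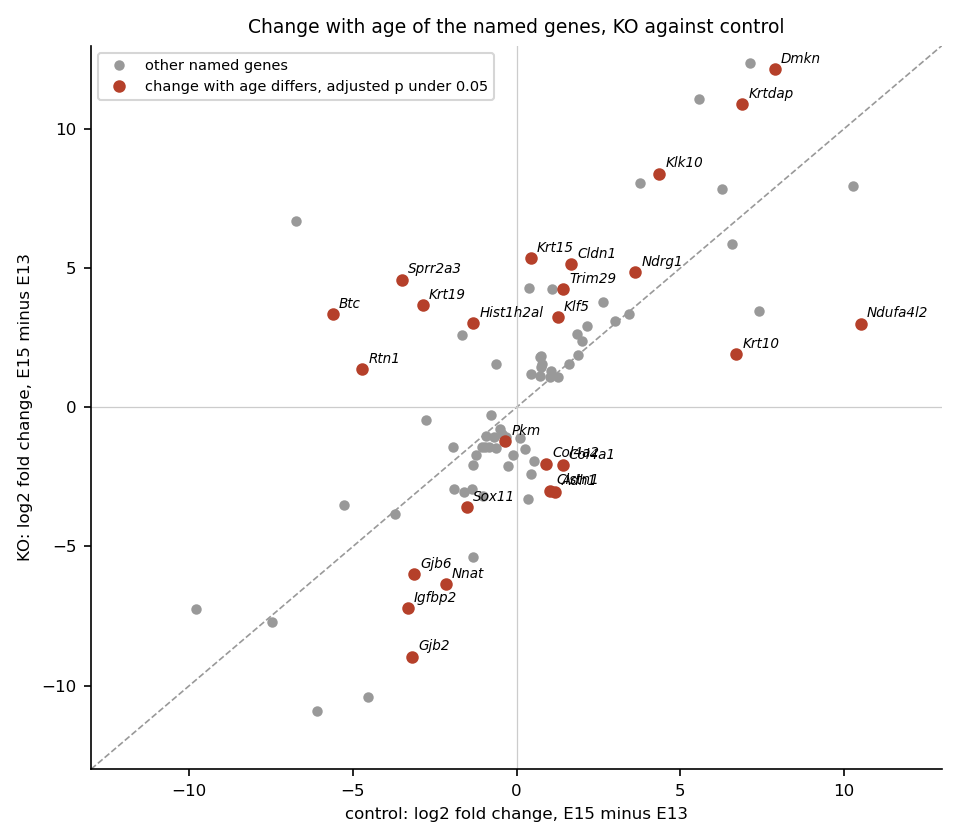
Log2 fold change from E13 to E15 of the named genes in KO cells (vertical) against control cells (horizontal), 1 point per gene. Red points are genes whose change differs between the arms at an adjusted p under 0.05, and the dashed line marks equal change; Krt15 and Sprr2a3 lie above the line and Krt10 and Gjb2 below it.

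Markers of other cell types moved with age in the chosen cells. The counts of calls below stand beside 11.1% higher and 9.86% lower among all genes tested. In the mesenchymal list 11.1% were called higher, the same share as over all genes, and 27.8% lower. The summed level of 12 fibroblast markers was 1708, 1958, 1763 and 3900 CPM, against 6265, 6458, 19364 and 22062 in barcodes with at most 1 epithelial gene, and 5 of 12 markers were called higher. Haemoglobin and other erythroid genes summed to 3116, 2598, 5229 and 11958 CPM, and 8 macrophage markers to 27.4, 49.4, 126 and 191. The mesothelium sum was also higher (8.74, 11.9, 40.6 and 40.4 CPM, 1 of 2 tested called higher). Sums that were lower at E15 included 7 muscle markers (104, 255, 37.7 and 29.9 CPM, 2 of 5 tested called lower) and 6 neuron markers (37.6, 152, 7.24 and 0.586, 2 of 3 called lower). They also included the endothelial markers (3 of 8 called lower), Schwann markers (11.7, 16.6, 5.80 and 7.61, 0 of 2 called) and Merkel markers (7.75, 12.1, 2.90 and 2.34, 0 of 1 called). Melanoblast markers summed to 8.54, 158, 10.1 and 11.7 CPM, high in E13 KO 2 alone of the 4. The mesenchymal list gave 2 higher and 5 lower of 18, including Prrx1 (105, 95.5, 23.2 and 39.2 CPM), Snai2 (14.5, 13.4, 0 and 2.34) and Vim (457, 598, 122 and 192), and the elastic fibre gene Mfap5 was higher (8.35, 2.16, 18.8 and 56.8; not called without E15 KO 2, with adjusted p = 0.182). That list gave 0 higher and 3 lower without E15 KO 2, 3 and 2 without E15 KO 1, 1 and 2 without E13 KO 2, 1 and 4 without E13 KO 1, and 1 and 5 without E13 WT or E13 HET. Leaving out all cells with at least as many fibroblast markers as epithelial genes kept 75, 86, 13 and 26 KO cells and gave 2700 calls, with 2055 (85.8%) of the 2396 among them. That fit lacked both E15 control libraries, which kept 5 and 4 cells, so the 2 totals differ in libraries as well as cells. With only the 4 KO libraries in the fit, all chosen KO cells gave 2745 calls. Of 10 markers of lung, gut and kidney epithelium 2 had a UMI in E13 KO 1, 1 in E13 KO 2 and 0 in either E15 KO library, with sums of 0.994, 3.15, 0 and 0 CPM.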

How the data were processed

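The authors deposited raw UMI counts for each gene and barcode, with Cell Ranger, Seurat and mm10 named per the submitters' processing notes. Versions and the authors' barcode filter are not given in the sources used here. The libraries held 8177867 to 26456164 UMIs. Gene coordinates were taken from GENCODE M21 on GRCm38, and 276 of 27998 gene IDs were not in it. The members and gene lists were chosen with earlier results of these data known.

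UMIs of the chosen cells were summed per library. Genes passing filterByExpr at a minimum count of 10 entered edgeR 4.0.16 (R 4.3.3) with TMM scaling and 1 mean per age and arm over all 8 libraries and 4 residual degrees of freedom. An adjusted p under 0.05 was a call. The SE is the absolute log2 fold change divided by the square root of F. Doublets, scored per library, were kept in the main test (7 of 331 chosen KO cells). The test was tried on simulated counts.

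Genes were named by rule: the 8 largest rises and falls among calls with at least 50 CPM and no overlap, 13 set keratins and markers, up to 3 members per list with the smallest p, and the 5 largest age by arm differences in each direction. Some results are not reported here. Genes outside the rule were named after their values were seen. Models without a name (Gm, Rik) and haemoglobins were left out of that ranking. Alternatives covered scaling, DESeq2 1.42.0, filters, thinning, the cell rule and leaving out each library.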

Additional observations from a re-analysis of the deposited data

Results flagged for a closer look

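For 25 named genes the change with age differed between KO and control cells by the interaction test (edgeR, adjusted p under 0.05), given here as the KO change minus the control change on the log2 scale. The KO change was above the control change for Btc (8.96), Sprr2a3 (8.08), Krt19 (6.52), Rtn1 (6.11), Krt15 (4.93), the histone gene Hist1h2al (4.34), Dmkn (4.27), Klk10 (4.05), Krtdap (3.99), Cldn1 (3.49), Trim29 (2.82), Klf5 (1.99) and Ndrg1 (1.22). It was below for Ndufa4l2 (-7.51), Gjb2 (-5.77), Krt10 (-4.79), the retinol-metabolising Adh1 (-4.21), Nnat (-4.18), Clstn1 (-4.02), Igfbp2 (-3.90), Col4a1 (-3.49), Col4a2 (-2.93), Gjb6 (-2.84), Sox11 (-2.07) and Pkm (-0.86).

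Krt15 and Sprr2a3 passed in 22 of 22 alternatives, and Gjb2 and Rtn1 in 21. Ndrg1 passed in 5 and Sox11 in 7. Of the 25 genes, 4 passed without E15 KO 2, 5 without E13 KO 2, 11 without E13 KO 1, 13 without E15 KO 1 and 13 without E13 WT. Btc had 0 UMIs in both E15 control libraries, and Sprr2a3 and Rtn1 had 0 in E15 HET and 1 and 3 in E15 WT, so these fitted values are not bounds. Adh1 stood at 180, 275, 46.4 and 14.6 CPM in KO, and Clstn1 at 27.8, 30.2, 2.90 and 3.51.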

How the results depend on the processing

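Of 82 named genes called in KO, 51 stayed past the threshold in the same direction in all 24 alternatives, and 0 of the called genes reversed. Krt8, which was not called, went from -0.27 to 0.035 with at least 3 epithelial genes required. The KO calls (1266 higher, 1130 lower) became 1338 (818 and 520) at no more than 5% mitochondrial UMIs, which left out E15 KO 1 with 8 cells, and 667 (387 and 280) with each cell thinned to 5000 UMIs, where fewer genes were tested. Control calls became 2366 with no low-count filter (1168 lower) and 530 (367 and 163) when thinned. Age by arm calls became 484 (189 and 295) with DESeq2, 1070 (433 and 637) with no filter, 195 (104 below control) at 5% mitochondrial UMIs and 43 (21 and 22) when thinned. The calls below control were 115 at 3 epithelial genes and 109 with the rule applied to thinned cells. The causes were not tested.

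Leaving out 1 library at a time gave 752 to 2956 KO calls (458 to 1596 higher, 294 to 1427 lower), 672 to 1319 control calls (441 to 802 and 171 to 517) and 16 to 331 age by arm calls (6 to 133 and 10 to 199). An age left with 1 library was assumed to vary like the others.

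With the replicate number as a block, KO calls were 1988, control calls 1172 and age by arm calls 220. Replicate numbers do not pair these libraries, since embryos differ between ages, and the replicate differences correlated at 0.02 between ages.

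Leaving out cells with fibroblast markers left under 10 cells in both E15 control libraries, so only the KO change was tested there. A minimum of 500 genes changed no chosen cell. E15 KO 1 rests on 17 cells.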
